A study of Homo sapiens with 2 samples.

Results

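The enzymes of the pentose phosphate pathway were read on a pair of whole-transcript microarrays of DLD-1, an established human colorectal cancer cell line. The members were 8 listed genes: H6PD, PGLS and PGD of the oxidative branch, RPIA, RPE, TALDO1 and TKT of the non-oxidative branch, and RBKS, which brings free ribose into the pathway. A named probe set was found for 7 of them, 1 probe set each, among 17687 named genes. RBKS was not analysed here, and the listed genes do not include every enzyme of the pathway. One culture had been transfected with an siRNA against YY1 (siYY1) and the other with a non-targeting negative control siRNA (siControl), both at 5 nmol/L with the same lipid reagent, and total RNA was isolated 3 days later. YY1, a transcription factor with zinc fingers, binds many promoters, and the study asked which genes differ in level once it is knocked down. A single siRNA sequence was used, so effects of that sequence on other transcripts cannot be told apart from effects of YY1.

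The pentose phosphate pathway branches off from glycolysis at glucose 6-phosphate. Its oxidative branch yields NADPH, the electron donor for lipid synthesis and for keeping glutathione and thioredoxin reduced, and ends in ribulose 5-phosphate. Its non-oxidative branch interconverts sugar phosphates reversibly, so that a cell can make ribose 5-phosphate for nucleotides or return carbon to glycolysis. Both products are in demand in dividing tumour cells.

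Each group was 1 array, so no value below has a replicate error and no test between conditions was possible. All differences are siYY1 minus siControl in log2 units and compare 1 array with another rather than the conditions. Precision is limited by the number of arrays. That the values are log2 expression was inferred from their range, because the labels do not state the scale. The sole measure of technical spread at hand came from 20 genes with more than 1 probe set, whose probe sets gave differences with a pooled SD of 0.35. These probe sets were read on the same pair of arrays, so this SD does not cover error between arrays or between cultures. Brighter genes were used as background: 8750 protein-coding genes that reached 7.50 on at least 1 of the arrays. Their differences had a median of -0.01 and an SD of 0.75. No probe set was named for YY1, so its level was not analysed here and the knockdown is known from the labels only. Of 9 epithelial and intestinal markers, 8 passed the same minimum, and the median over all 9 was 13.96 in siYY1 and 14.00 in siControl. The exception was CDX1, at 5.19 in siYY1 and 4.88 in siControl. Markers of fibroblasts, leukocytes and endothelium were mostly dim, and 2 of 13 passed. These were the fibroblast marker COL1A2, at 8.84 in siYY1 and 8.62 in siControl, and the leukocyte marker CD14, at 6.95 and 7.67 in the same order. The defining markers PTPRC (4.98 in siYY1 and 4.96 in siControl) and PECAM1 (4.70 and 4.54 in the same order) were far below the minimum.

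Promoter windows of 3 members are shown because their levels are the ones described first below. PGD and RPE had the lowest differences, and PGLS was the one member above 0 under all 4 ways of scaling the arrays. The windows run from 250 bases before to 50 bases after the start of each gene, read 5′ to 3′ on the strand of the gene, as listed by RefSeq on GRCh38.p14. They are PGD at chr1:10398814-10399113 (plus strand), RPE at chr2:210002388-210002687 (plus strand) and PGLS at chr19:17511399-17511698 (plus strand). Capitals mark matches to TGACNNNGC, the core of the antioxidant response element bound by NRF2, on either strand.
PGD: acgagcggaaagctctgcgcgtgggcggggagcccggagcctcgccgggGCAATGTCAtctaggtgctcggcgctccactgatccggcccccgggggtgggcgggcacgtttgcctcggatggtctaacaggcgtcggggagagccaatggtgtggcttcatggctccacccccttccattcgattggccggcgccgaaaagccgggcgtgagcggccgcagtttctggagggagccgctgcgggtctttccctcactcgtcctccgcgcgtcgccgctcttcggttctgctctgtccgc
RPE: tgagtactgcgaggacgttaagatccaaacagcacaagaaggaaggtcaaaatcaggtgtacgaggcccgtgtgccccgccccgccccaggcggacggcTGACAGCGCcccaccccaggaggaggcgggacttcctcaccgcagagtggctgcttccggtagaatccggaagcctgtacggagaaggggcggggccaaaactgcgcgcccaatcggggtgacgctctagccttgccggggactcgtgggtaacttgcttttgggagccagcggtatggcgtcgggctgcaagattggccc
PGLS: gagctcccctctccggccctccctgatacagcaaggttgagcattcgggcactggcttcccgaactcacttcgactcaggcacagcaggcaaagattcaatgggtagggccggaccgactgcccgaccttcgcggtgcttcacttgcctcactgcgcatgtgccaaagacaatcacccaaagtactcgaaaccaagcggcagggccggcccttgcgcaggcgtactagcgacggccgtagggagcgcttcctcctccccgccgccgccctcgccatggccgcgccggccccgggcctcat

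Windows were found for all 8 listed genes and searched on both strands for 3 motifs that do not overlap each other here. TGACNNNGC matched in 2 of the 8, at -201 to -193 bases from the start of PGD, on the opposite strand, and at -151 to -143 bases from the start of RPE. It matched in 14.3% of 15843 protein-coding promoter windows of the same length. AANATGGC, a core of the YY1 motif, matched in 0 of the 8 windows and in 7.92% of all windows, and CACGTG, the E-box, in 0 of the 8 and in 8.88%. These are matches of letters only and say nothing of binding. The windows of 7 of the 8 genes held more CpG dinucleotides than the median promoter window, which had 22. The exception was H6PD, with 5, against 35 in PGD and 44 in TALDO1.

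In the oxidative branch, PGD had by far the lowest difference between the arrays. PGD encodes 6-phosphogluconate dehydrogenase, which makes the second NADPH-yielding step of the branch and releases ribulose 5-phosphate. Its level was 11.29 in siYY1, against 13.24 in siControl, a difference of -1.96 and a 3.88-fold lower value. In the values as deposited it was at 11.21 in siYY1 and 13.33 in siControl, which is 4.37-fold lower. Only 70 of the 8750 genes compared, 0.8% of them, were as low or lower. Both PGD values were well above the brightness minimum, in the brightest of 3 equal parts of the genes compared. In that part the differences had an SD of 0.66, and 6.79% of genes were at least 2-fold lower.

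The other oxidative enzymes did not share this size of difference. PGLS encodes 6-phosphogluconolactonase, which opens the lactone ring in the step before PGD. It was at 8.96 in siYY1 and 8.75 in siControl, a difference of 0.21, which is smaller than the spread between probe sets of 1 gene. H6PD is the enzyme of the endoplasmic reticulum that carries out the first steps of the branch inside that compartment and keeps its own NADPH pool. H6PD was at 7.31 in siYY1 and 7.73 in siControl, a difference of -0.42. Its siYY1 value lay below the brightness minimum of 7.50, and 54.9% of the genes compared differed by as much or more in either direction. The differences of the 3 oxidative enzymes ranged from -1.96 to 0.21 on the same pair of arrays.

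**Figure D1:**
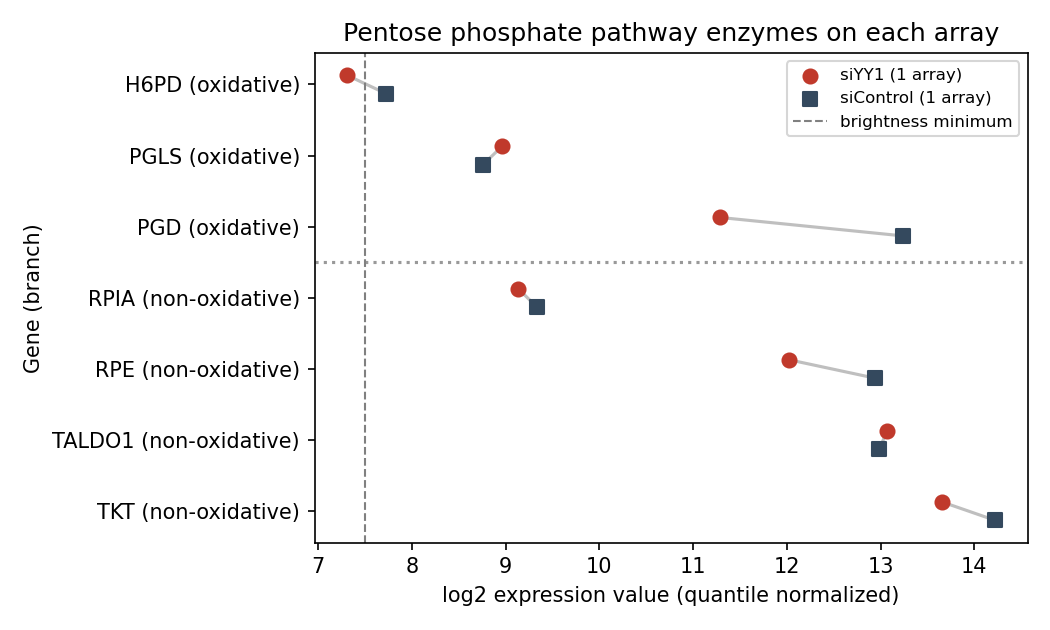
Level of each measured pathway enzyme on each array, as quantile normalized log2 expression (horizontal axis), with siYY1 as circles and siControl as squares, 1 array each. PGD has the widest gap, 11.29 in siYY1 and 13.24 in siControl, while PGLS and TALDO1 lie slightly to the right in siYY1. The dashed line is the brightness minimum of 7.50.

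In the non-oxidative branch, the values were spread over a narrower range and none passed 2-fold. RPE encodes ribulose-phosphate 3-epimerase, which turns ribulose 5-phosphate into xylulose 5-phosphate. RPE was at 12.02 in siYY1 and 12.94 in siControl, a difference of -0.92 or 1.90-fold lower, just short of 2-fold. In the values as deposited RPE was at -1.05 and with each array centred on its median at -1.13, so that it passed 2-fold under both. RPEL1, an intronless copy of RPE with closely similar sequence, has its own probe set and was at 9.06 in siYY1 and 9.28 in siControl. Whether these 2 probe sets share signal was not tested, and the RPE value is uncertain to that extent.

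TKT encodes transketolase, the thiamine-dependent enzyme that moves two-carbon units between sugar phosphates and links the branch to glycolysis. It was at 13.65 in siYY1 and 14.22 in siControl, a difference of -0.57 or 1.48-fold lower. A difference of this size or larger in either direction was found in 42.5% of the genes compared. RPIA encodes ribose 5-phosphate isomerase, which forms ribose 5-phosphate from ribulose 5-phosphate. RPIA was at 9.13 in siYY1 and 9.33 in siControl, a difference of -0.20. TALDO1 encodes transaldolase, which works with transketolase on the seven-carbon sugar phosphate, and was at 13.07 in siYY1 and 12.98 in siControl, a difference of 0.09. RPIA and TALDO1 both differed by less than the spread between probe sets. The sign of TALDO1 depended on the scaling, since it was at -0.05 in the values as deposited and at -0.12 after centring. The competing fates of ribulose 5-phosphate, RPE and RPIA, thus had differences of -0.92 and -0.20, and the partners TKT and TALDO1 had -0.57 and 0.09.

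**Figure D2:**
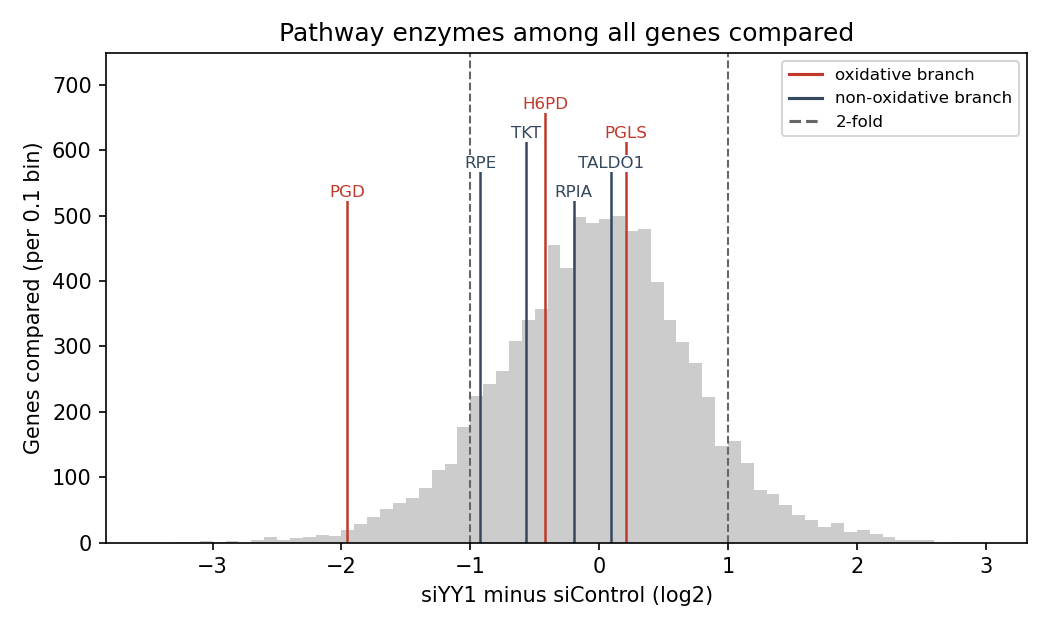
Histogram of the log2 difference, siYY1 minus siControl, over the 8750 genes compared, in bins of 0.1, with each measured enzyme as a labelled line and 2-fold as dashed lines. PGD at -1.96 lies in the lower tail, and the other 6 enzymes lie between -0.92 and 0.21, inside 2-fold. Line heights differ to keep labels apart and carry no value.

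The branches were compared by their medians. The oxidative branch had a median of -0.42 over 3 enzymes, with 2 below 0, and the non-oxidative branch had -0.38 over 4, with 3 below 0. The oxidative median is the value of H6PD, whose siYY1 level was dim, and members entered these medians without a brightness minimum. The difference between the branch medians was -0.03, and the non-oxidative range, -0.92 to 0.09, lay wholly inside the oxidative range, -1.96 to 0.21. The order of the branch medians changed with the scaling: the oxidative branch was 0.11 above the non-oxidative one in the values as deposited. It also depended on PGD: the oxidative branch was 0.28 above without PGD, while without RPE the difference was -0.22 and the order was kept. With means in place of medians the difference was -0.32. Hence the arrays did not separate the branches, and the outlying value belonged to PGD alone among the 7.

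Across both branches, 1 of the 7 measured enzymes, PGD, was at least 2-fold lower, and 0 passed 2-fold upwards. Among all genes compared 9.38% passed 2-fold downwards and 7.92% upwards, so the share of members past 2-fold is near the background. Even at 1.5-fold, 2 of the 7, PGD and RPE, were lower, against 21.8% of all genes compared. The median of the 7 was -0.42, against -0.01 over all genes compared, and 5 of the 7 were below 0, as were 50.4% of all genes compared. In the values as deposited, where the median of all genes compared moved to -0.13, 2 of the 7 were at least 2-fold lower, against 12.2% of genes, and 6 of the 7 were below 0, against 56.8%. After centring on medians 2 of the 7 were at least 2-fold lower, against 14.3%. Relative to the median of all genes compared, the oxidative branch was at -0.41 with quantile normalization and at -0.28 as deposited, and the non-oxidative branch at -0.37 and -0.39.

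**Figure D3:**
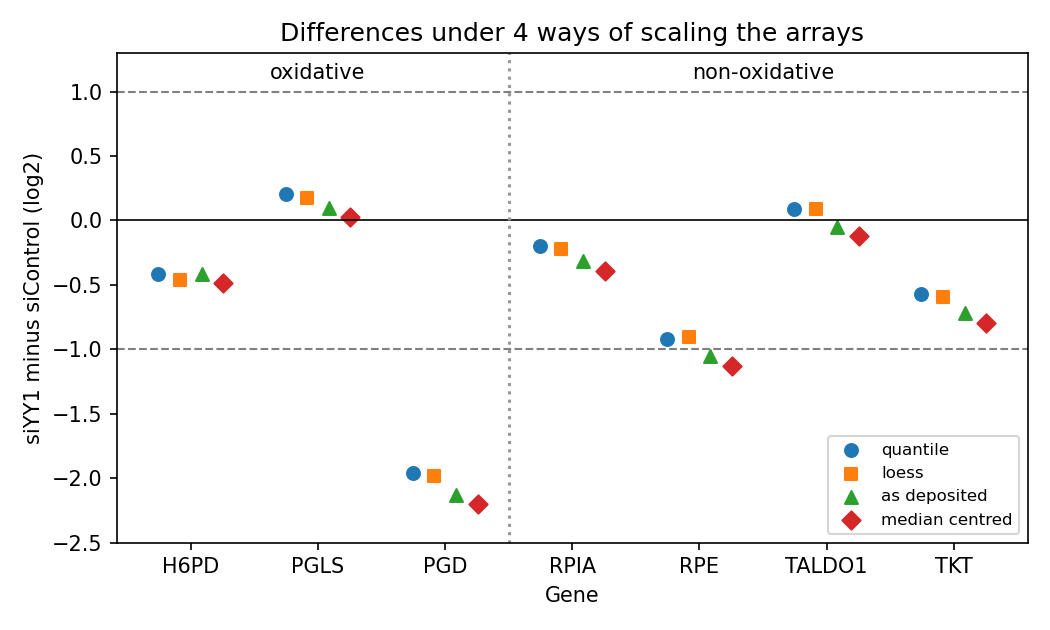
Log2 difference, siYY1 minus siControl, of each measured enzyme under 4 ways of scaling the arrays (symbols), with 2-fold as dashed lines. PGD lies between -2.20 and -1.96 under all 4, RPE crosses the 2-fold line, and TALDO1 changes sign between 0.09 and -0.12.

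Chromosomal neighbours, taken from the RefSeq gene order of GRCh38.p14, were read for the same pair of arrays. PGD and H6PD both lie on chromosome 1 and differed by -1.96 and -0.42. KIF1B, the kinesin gene next to PGD, was at 11.15 in siYY1 and 10.42 in siControl, a difference of 0.73 and on the other side of 0 from PGD. The nearest coding neighbour on the other side of PGD was not among the named genes. Next to TKT, PRKCD was at 0.10 and DCP1A, an mRNA decapping factor, at -1.29. EIF2AK3, which encodes the stress kinase PERK and lies next to RPIA, was at 1.32. TALDO1 lies between EPS8L2, at -0.10, and GATD1, at -0.60. GPR157 and SPSB1 flank H6PD and were at 0.51 and -0.16. The neighbours of PGLS, SLC27A1 at -0.10 and NIBAN3 at -0.46, and those of RPE, UNC80 at 0.94 and ACADL at 0.59, were all too dim to be among the genes compared, as was KANSL1L, which overlaps RPE and was at 0.54. Around RBKS, which has no value here, BABAM2 overlaps it and was at 1.23, MRPL33 was at -0.23 and FOSL2 at -0.79.

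The steps around the pathway were read through 4 lists of 68 genes, of which 48 were bright enough to be compared. Of these, 8 were at least 2-fold lower, or 16.7%, against 9.38% of all genes compared, and 0 passed 2-fold upwards, against 7.92%. Of the 48, 4 reached the minimum through siControl alone (PGM2L1, SHPK, ALDH4A1 and SRXN1) and 0 through siYY1 alone, which favours lower values in siYY1. With the minimum set on the mean of the pair, an alternative added after seeing the data, 6 of 44 were at least 2-fold lower, or 13.6%, against 8.58% of 8391 genes. The lists were chosen with earlier results of these data known, so the counts are a description. Among the neighbouring sugar phosphate steps, 14 genes had a median of -0.66, with 11 below 0 and 4 at least 2-fold lower. This median depended on the brightness minimum: it was -0.38 with the minimum on the mean of the pair, where 2 of 12 genes were at least 2-fold lower, -0.33 with the minimum at the 75th percentile and -0.37 with none.

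SHPK, which phosphorylates sedoheptulose to the seven-carbon intermediate of the non-oxidative branch, was at 6.01 in siYY1 and 7.54 in siControl, a difference of -1.53. Its siYY1 value was below the brightness minimum, as was that of PGM2L1, which makes glucose 1,6-bisphosphate, at 6.61 in siYY1 and 7.75 in siControl. The sizes of these differences are uncertain for that reason. FBP1, the fructose 1,6-bisphosphatase of gluconeogenesis, which can send carbon back towards glucose 6-phosphate, was at 9.13 in siYY1 and 10.56 in siControl, a 2.70-fold lower value. PFKP, a phosphofructokinase that draws fructose 6-phosphate into glycolysis, was at 13.41 in siYY1 and 14.70 in siControl, 2.45-fold lower. FBP1 and PFKP act in opposite directions on the same pair of sugar phosphates, and both were lower in siYY1. Named after their values were seen, TIGAR, a phosphatase known for favouring the oxidative branch, was at -0.84 and GPI, which joins glucose 6-phosphate to fructose 6-phosphate, at -0.80. Above 0 were PGM1 at 0.75, PFKL at 0.68 and the transketolase-like gene TKTL1 at 0.59.

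Many of the genes listed under ribose 5-phosphate use work on its activated form rather than on it directly, mainly for nucleotide synthesis. Of these listed genes 9 were compared, and 0 passed 2-fold in either direction. Among all genes compared 9.38% passed 2-fold downwards and 7.92% upwards. The median of the 9 listed genes was -0.12, and it was -0.29 in the values as deposited and -0.37 after median centring. Those scalings put the median of all genes compared at -0.13 and -0.20. APRT, which salvages adenine, was the lowest at 7.95 in siYY1 and 8.54 in siControl, a difference of -0.59. HPRT1, which salvages hypoxanthine and guanine, was at -0.33, and NAMPT, of NAD salvage, at -0.25. UMPS, which completes the pyrimidine nucleotide UMP, was the highest at 0.25. The synthetases that turn ribose 5-phosphate into the activated form, PRPS1 and PRPS2, were at 0.09 and -0.08.

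Genes listed as other NADPH sources, not all of which make NADPH themselves, were spread on both sides of 0. The 13 genes compared had a median of -0.11, with 7 below 0 and 6 above. Of the 13, 2 were at least 2-fold lower, against 9.38% of all genes compared. MTHFD1, a cytosolic enzyme of one-carbon folate metabolism, was at 12.99 in siYY1 and 14.35 in siControl, a 2.56-fold lower value. ME3, a mitochondrial malic enzyme, was at 8.29 in siYY1 and 9.42 in siControl, 2.19-fold lower. IDH1, the cytosolic NADP-dependent isocitrate dehydrogenase, was at 12.63 in siYY1 and 13.54 in siControl, a difference of -0.91, and ALDH4A1, of proline breakdown, was at -0.73, with a dim siYY1 level of 6.97, against 7.70 in siControl.

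The genes listed as NADPH users do not all take electrons from NADPH directly. The 12 compared had a median of -0.72, with 11 below 0, against 50.4% of all genes compared. Among the 11, SRXN1 reached the minimum through siControl alone. The median was -0.72 with the minimum on the mean of the pair and -0.59 over all 16 named genes of the 21 listed. Of the 12, 2 passed 2-fold downwards and 0 upwards, against 9.38% and 7.92% of all genes compared. TXNRD1, the cytosolic thioredoxin reductase, was at 12.84 in siYY1 and 14.55 in siControl, 3.26-fold lower and the nearest in size to PGD in the 4 lists. BLVRB, a flavin and biliverdin reductase, was at 11.21 in siYY1 and 12.28 in siControl, 2.09-fold lower. TXNRD2, the mitochondrial thioredoxin reductase, was at -0.94. FASN, the fatty acid synthase, was the one member above 0, at 12.66 in siYY1 and 11.79 in siControl, a difference of 0.87. Glutathione reductase, GSR, was at -0.21.

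**Figure D4:**
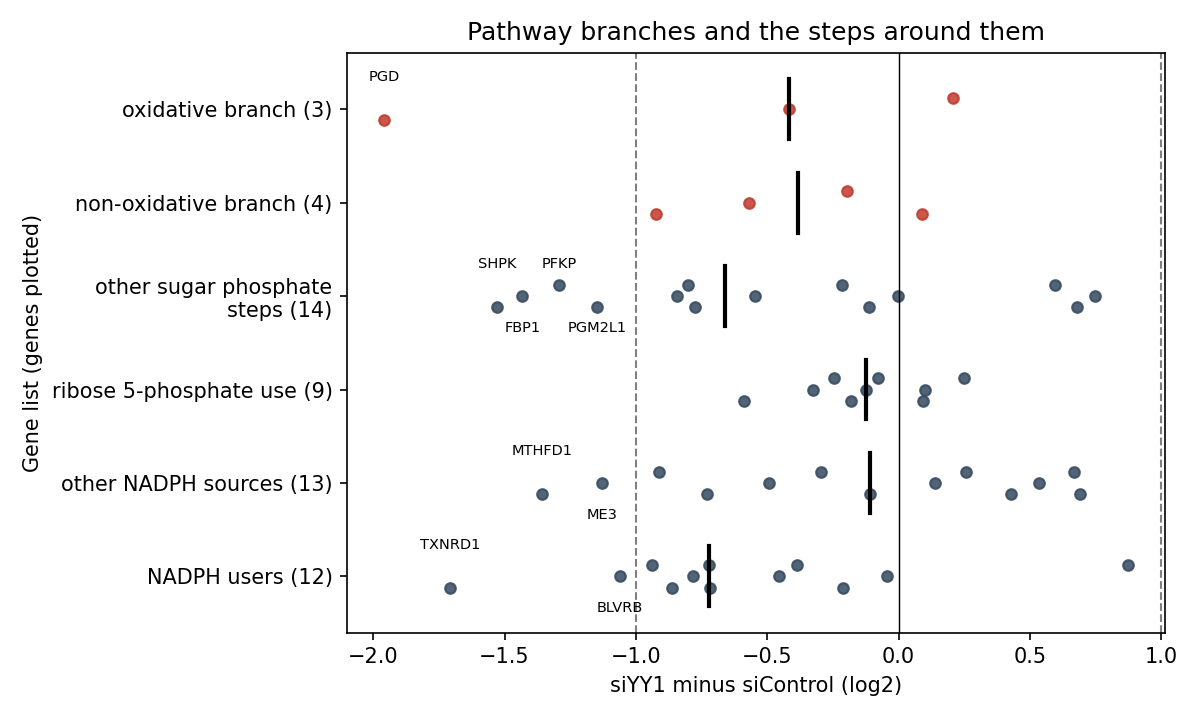
Log2 difference, siYY1 minus siControl, of each gene compared, by list (red for the members, blue for other genes, vertical offsets only to separate points), with the list median as a black bar and 2-fold as dashed lines. Genes past 2-fold are named. The medians run from -0.72 for NADPH users to -0.11 for other NADPH sources, and 0 genes lie above the upper 2-fold line.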

How the data were processed

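Per the labels' protocols, sense cDNA from total RNA was biotin-labelled with a GeneChip WT kit. The authors deposited 1 value per probe set and array for 21448 probe sets, taken as log2 because they ran from 2.51 to 17.92. How they were normalized was not given in the sources used here. In the deposited values the 25th percentiles were 4.91 in siYY1 and 4.74 in siControl, and the 75th were 10.04 and 10.17, so the pair was quantile normalized. A platform annotation named 17709 probe sets, whose symbols were updated by gene ID through RefSeq of GRCh38.p14. Probe sets of a gene were averaged. Genes compared were protein-coding, and reached, on the brighter array, the median brightness of named genes so measured. Called means at least 2-fold. Text names all members, genes past 2-fold and the 4 largest differences of each list, and nearest coding neighbours; others were named after their values were seen. Members and lists were chosen with earlier results of these data known. A planned description by protein length was not run. The computation was tested on simulated data whose noise was set far below the spread of differences seen here, an SD of 0.75. That test checks the code only and not how reliable the 2-fold calls are. Alternatives were the deposited values, median centring, loess, the brightest probe set, means, thresholds of 1.5-fold and 3-fold, other brightness minimums and all gene types. Python 3.11.15, numpy 2.4.6, pandas 2.3.3, statsmodels 0.14.6 and matplotlib 3.10.9 were used.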

Additional observations from a re-analysis of the deposited data

How the results depend on the processing

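With no replicates, a value was taken as moved when it changed by more than the SD of 0.35 between probe sets of 1 gene, and a count when it changed by over 1.5 times. Over 14 alternatives, 120 of 129 recomputed values kept within these limits, 9 moved and 0 past 2-fold changed sign. A change of sign was looked for only in values past 2-fold, and among the differences and medians that was PGD alone. Smaller values that changed sign by less than this SD were counted as kept. Examples are TALDO1, from 0.09 to -0.12, and the difference between the branch medians, from -0.03 to 0.28 without PGD. Some of the kept values could not change, so the count overstates how firm the results are. Each measured member has 1 probe set, so taking the brightest probe set left its value as it was. Leaving out a gene likewise left the median of the other branch as it was, and taking all gene types changed none of the recomputed values. PGD stayed between -2.20 and -1.96. The members at least 2-fold lower numbered 2 in place of 1 in the values as deposited, with median centring and at 1.5-fold. The second was RPE each time. In the surrounding lists the 8 genes at least 2-fold lower became 13 with median centring, 19 at 1.5-fold, 1 at 3-fold and 4 with the brightness minimum at the 75th percentile, which tests fewer genes. The 0 higher genes became 6 at 1.5-fold. The median of other NADPH sources, -0.11, was 0.26 with the minimum at the 75th percentile 0.06 with none and 0.01 with it on the mean of the pair, so its sign depended on which genes were kept. Leaving out PGD or RPE and the minimum on the mean of the pair were chosen after seeing the data. No paired analysis was possible because each group has 1 array. Dim values limit H6PD, SHPK, PGM2L1, ALDH4A1 and SRXN1, whose siYY1 levels were below the brightness minimum.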

Other observations

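Within the list of other NADPH sources, related enzymes of the cytosol and the mitochondrion were set side by side, a grouping chosen after their values were seen. Not all of these enzymes make NADPH themselves, so the grouping is by compartment and not by NADPH made. For isocitrate dehydrogenase, the cytosolic IDH1 was at -0.91 and the mitochondrial IDH2 was at 11.51 in siYY1 and 10.98 in siControl, a difference of 0.53. For one-carbon folate metabolism, the cytosolic MTHFD1 was at -1.36, while the mitochondrial MTHFD2 was at 14.64 in siYY1 and 13.97 in siControl, a difference of 0.67, and the mitochondrial MTHFD1L was at 0.43. The malic enzymes did not follow this order by compartment: the cytosolic ME1 was at -0.29, and of the mitochondrial forms ME2 was at 0.69 and ME3 at -1.13. The kinases that make NADP from NAD were close to 0 and in the opposite order, with the cytosolic NADK at 0.14 and the mitochondrial NADK2 at -0.11. Left out of this grouping were the other compared genes of the list, ALDH4A1 at -0.73, GLUD1 at -0.50 and NNT at 0.26. An order by compartment is thus described only for the isocitrate dehydrogenase and folate genes named here.

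HMOX1, the haem oxygenase that NRF2 induces, was too dim to be among the genes compared, at 5.74 in siYY1 and 6.97 in siControl, a difference of -1.24. The other listed NADPH users with a probe set but too dim to be compared lay above 0: AKR1C1 at 0.03, CBR3 at 0.03 and NOX1 at 0.26. The deoxynucleotide enzyme ribonucleotide reductase, which takes electrons from NADPH through thioredoxin, had its catalytic subunit RRM1 at -0.04 and its small subunit RRM2 at -0.72.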
